A study of Homo sapiens with 6 samples.

Results

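The urokinase system and the matrix metalloproteases are described here through 9 genes: PLAU, PLAUR, PLAT, SERPINE2, MMP2, MMP7, MMP14, TIMP1 and TIMP2. They were chosen by name as plasminogen activation genes, matrix metalloproteases and their inhibitors, and each is represented by all probe sets that name it alone, 20 of the 54613 probe sets tested. The data come from 6 Affymetrix U133 Plus 2.0 arrays hybridised with RNA of DLD1, an established human colorectal adenocarcinoma cell line. In the treated group 3 cultures received 10 µM SAH-BCL9B for 12 h, and in the vehicle group 3 cultures received DMSO for the same time. SAH-BCL9B is a stapled peptide modelled on the helix of BCL9 that binds beta-catenin. All 6 arrays come from 1 cell line at 1 dose and 1 time, and no control peptide was part of the design. Levels are deposited log2 values after RMA, a procedure that removes background, makes arrays comparable and combines a probe set's probes into 1 value. Nothing beyond the word triplicate says how separate the cultures were, so p-values measure only the spread between these samples.

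Urokinase, encoded by PLAU, and tissue plasminogen activator, encoded by PLAT, are serine proteases that cut plasminogen into plasmin. The urokinase receptor, encoded by PLAUR, holds urokinase at the cell surface, and protease nexin-1, encoded by SERPINE2, inhibits both activators. Matrix metalloproteases are zinc enzymes made as inactive precursors: MMP2 cuts type IV collagen and gelatin, MMP14 sits in the cell membrane and activates MMP2, and MMP7 (matrilysin) is made by epithelial cells. TIMP1 and TIMP2 encode secreted inhibitors of these enzymes, and TIMP2 is also needed for MMP14 to activate MMP2. In colorectal tumours MMP7, PLAUR and MMP14 are known as genes that beta-catenin and TCF can activate, while MMP2 and TIMP2 are made largely by stromal cells.

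After SAH-BCL9B, the urokinase receptor gene and both TIMP genes were higher, and neither the proteases nor SERPINE2 passed the test. PLAUR rose in all 3 of its probe sets by 1.43-fold to 1.87-fold, TIMP1 rose 1.45-fold in its single probe set, and TIMP2 rose in 2 of 3 probe sets by 1.46-fold and 1.49-fold. With limma and Benjamini-Hochberg adjustment over all 54613 probe sets, 6 of the 20 member probe sets had an adjusted p under 0.05, all of them higher. Over all probe sets, 2.5% passed, 1.12% higher and 1.37% lower. The median log2 change was 0.10 over the 20 member probe sets and 0.01 over all probe sets tested. In RNA of whole cultures, a change in the share of cells that express a gene and a change in RNA per cell cannot be told apart. No member fell, and 6 of the 9 genes had no probe set past the threshold. Not all 6 calls were kept when 1 array was left out. Without any 1 of the 3 vehicle arrays, SAH-BCL9B 1 or SAH-BCL9B 3, the limma count was 0. In those fits 7 or 8 of the 20 had an unadjusted p under 0.05, against 11% to 13.2% of all probe sets. Without SAH-BCL9B 2 the count was 4. Leaving out an array also leaves fewer samples, and the cause of the lost calls was not tested. When each gene was represented by its brightest probe set and adjusted over 19775 genes, of which 6.93% passed, PLAUR, TIMP1 and TIMP2 passed. In fits of this kind added after seeing the data, 2 or 3 of them passed without any 1 array. TIMP1 missed there without vehicle 1, vehicle 2 or SAH-BCL9B 3 (highest limma adjusted p = 0.093).

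**Figure D1:**
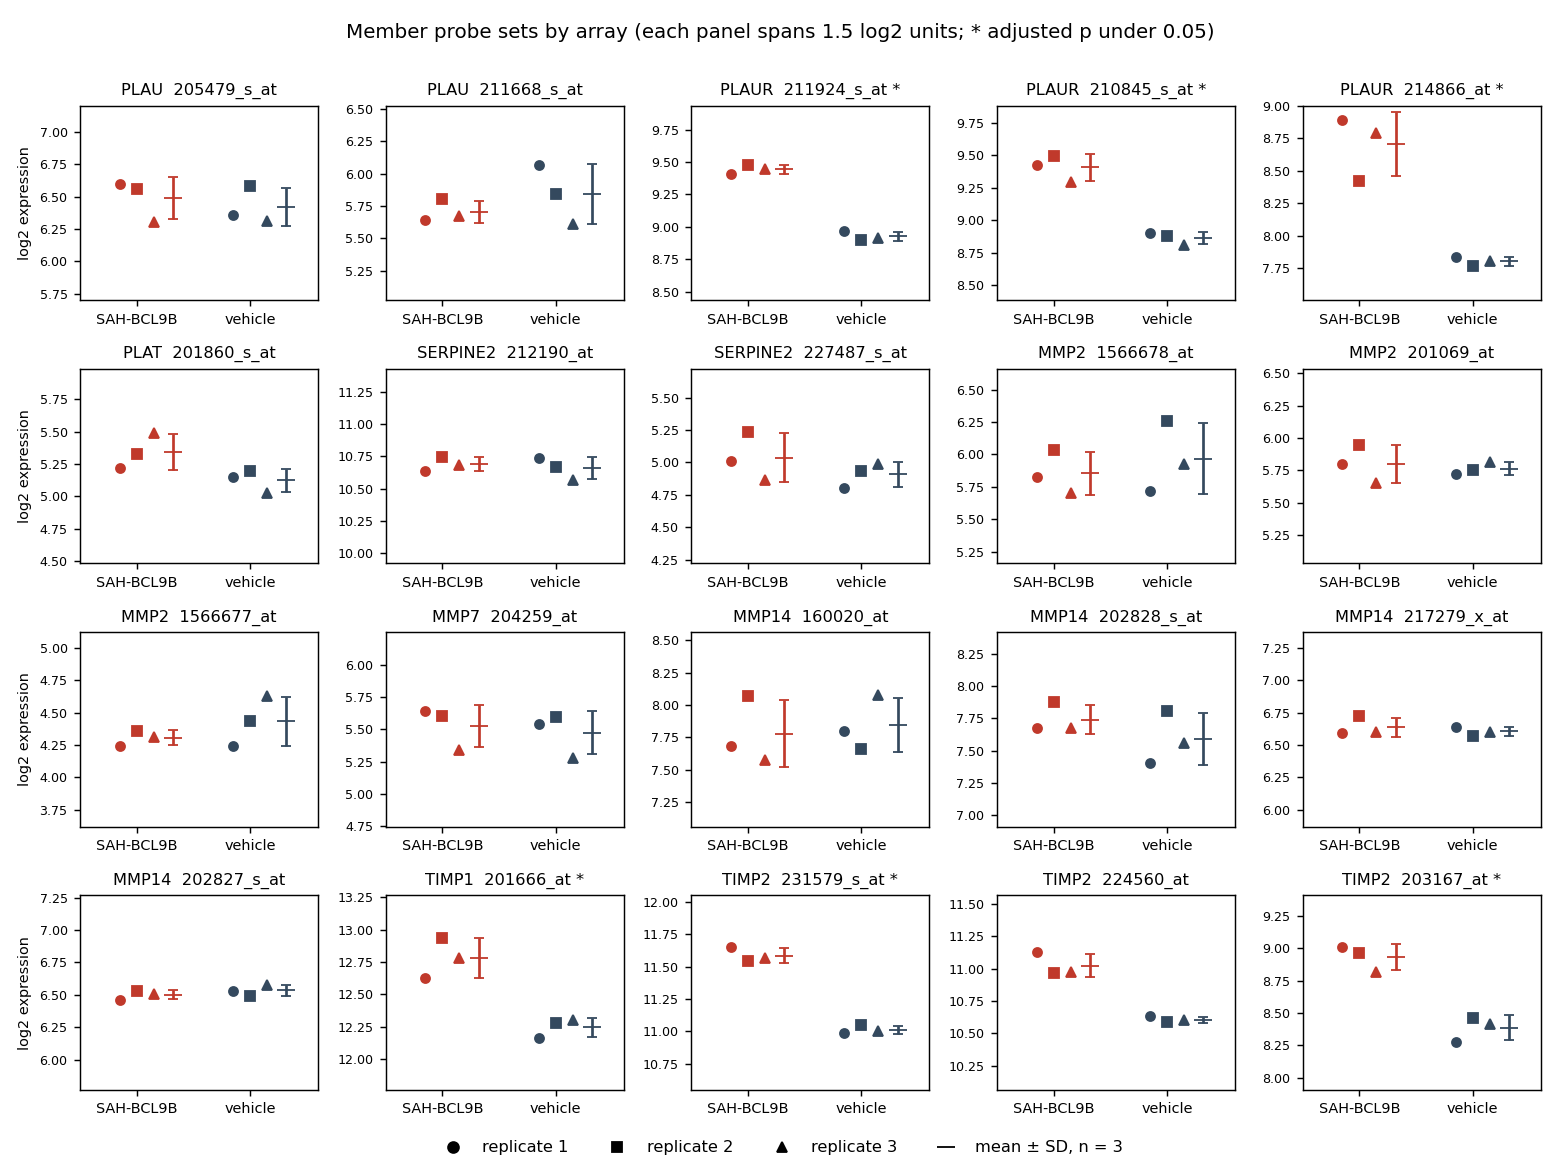
Log2 expression of the 20 member probe sets on each array, SAH-BCL9B in red at the left and vehicle in dark blue at the right of each panel, with the mean and SD over 3 arrays beside the points. An asterisk marks an adjusted p under 0.05. The 3 SAH-BCL9B arrays lie above the 3 vehicle arrays in all panels of PLAUR, PLAT, TIMP1 and TIMP2 and overlap them in the other panels.

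The promoters of 2 genes that rose, PLAUR and TIMP1, and of MMP7, the textbook beta-catenin target that did not pass, are shown so that the letters near each start site can be read beside the values. Each runs from 250 bases before the RefSeq start site to 50 bases after it, in build GRCh38.p14, 5′ to 3′ on the gene's strand. Capitals mark matches on either strand to 3 words: TGANTCA, which AP-1 factors bind, CTTTGA, the core of TCF sites, and AGGAAG, bound by ETS factors of the PEA3 group. PLAUR lies at chr19:43670120-43670419 on the minus strand, TIMP1 at chrX:47582186-47582485 on the plus strand and MMP7 at chr11:102530698-102530997 on the minus strand.
PLAUR: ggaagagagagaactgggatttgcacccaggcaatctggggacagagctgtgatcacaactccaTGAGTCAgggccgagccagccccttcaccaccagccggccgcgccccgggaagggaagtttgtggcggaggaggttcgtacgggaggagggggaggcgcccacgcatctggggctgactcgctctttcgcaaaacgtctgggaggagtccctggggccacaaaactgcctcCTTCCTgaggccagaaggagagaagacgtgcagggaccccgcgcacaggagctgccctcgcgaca
TIMP1: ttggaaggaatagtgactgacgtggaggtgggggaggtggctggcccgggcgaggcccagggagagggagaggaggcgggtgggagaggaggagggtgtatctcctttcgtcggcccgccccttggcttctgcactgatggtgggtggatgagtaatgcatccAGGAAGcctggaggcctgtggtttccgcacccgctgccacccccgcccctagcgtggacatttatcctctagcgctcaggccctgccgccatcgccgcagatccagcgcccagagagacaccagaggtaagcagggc
MMP7: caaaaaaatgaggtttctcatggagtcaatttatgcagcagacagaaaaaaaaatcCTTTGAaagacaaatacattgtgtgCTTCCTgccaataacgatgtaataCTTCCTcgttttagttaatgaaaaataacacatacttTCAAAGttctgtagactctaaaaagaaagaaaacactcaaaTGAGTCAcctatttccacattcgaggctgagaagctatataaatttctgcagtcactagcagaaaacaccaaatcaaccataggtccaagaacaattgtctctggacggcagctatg

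In this window MMP7 held 2 matches to CTTTGA, which begin 194 and 108 bases before the start site, 1 match to TGANTCA at 67 bases and 2 to AGGAAG. PLAUR held 1 match to TGANTCA at 186 bases and 1 to AGGAAG at 15 bases before the start site, and none to CTTTGA. TIMP1 held 1 match to AGGAAG, 87 bases before the start site, and none to the other 2 words. Only exact matches were counted, so near matches were left out, such as TGAGTAA in TIMP1, which differs from TGANTCA by 1 letter. Of 35116 promoters of this length, 7.7% held TGANTCA, 12.9% held CTTTGA and 33.6% held AGGAAG. Promoters were matched for 6 of the 9 genes. Those of PLAT, MMP2 and TIMP2 were not among the sequences used, so these genes were not scanned. Among the scanned genes MMP7 held CTTTGA, and PLAUR and MMP7 held TGANTCA. The matches overlapped no other match and are a description of the letters, not of binding.

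The receptor gene PLAUR had the largest change among the members. Its probe set 214866_at read 8.89, 8.42 and 8.80 on the SAH-BCL9B arrays, against 7.83, 7.76 and 7.81 on the vehicle arrays (log2). All 3 SAH-BCL9B arrays lay above the vehicle arrays, and SAH-BCL9B 2 was the lowest of the treated arrays. The log2 change was 0.90 ± 0.13 (SE; limma adjusted p = 0.0196), or 1.87-fold. Probe set 211924_s_at read 9.41, 9.48 and 9.44 on the SAH-BCL9B arrays, against 8.97, 8.90 and 8.91 on the vehicle arrays. The arrays of each group lay close together here, and the change was 0.52 ± 0.08 (adjusted p = 0.0229). Probe set 210845_s_at read 9.43, 9.50 and 9.30 on the SAH-BCL9B arrays, against 8.90, 8.88 and 8.81 on the vehicle arrays. The groups did not overlap either, and the change was 0.55 ± 0.09 (adjusted p = 0.0278). The 95% interval was 0.60 to 1.20 for 214866_at and 0.34 to 0.70 for 211924_s_at, and the difference in change between probe sets was not tested. Averaged over its 3 probe sets, PLAUR had a change of 0.66 ± 0.07 (limma adjusted p = 0.00298 over genes, of which 4.94% passed on this measure).

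PLAU, which encodes the receptor's ligand, did not pass the test. It read 6.60, 6.56 and 6.30 in probe set 205479_s_at on the SAH-BCL9B arrays, against 6.35, 6.58 and 6.31 on the vehicle arrays. The groups overlapped, and the change was 0.07 ± 0.12 (limma adjusted p = 0.869, 95% interval -0.21 to 0.35). PLAU probe set 211668_s_at read 5.64, 5.80 and 5.67 on the SAH-BCL9B arrays, against 6.07, 5.85 and 5.61 on the vehicle arrays. The spread in vehicle enclosed all treated values, and the change was -0.14 ± 0.13 (adjusted p = 0.725). Both PLAU vehicle means lay below the median of all probe sets.

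The other activator gene, PLAT, had SAH-BCL9B values of 5.22, 5.32 and 5.49 and vehicle values of 5.15, 5.20 and 5.03 in its single probe set, 201860_s_at. The groups did not overlap, as in 8 of the 20 member probe sets, all with SAH-BCL9B above vehicle. Over all probe sets tested, SAH-BCL9B lay wholly above vehicle in 12.3% and wholly below in 9.73%. The PLAT change of 0.22 ± 0.10 did not pass (limma adjusted p = 0.374). The inhibitor gene SERPINE2 was bright in probe set 212190_at, with 10.64, 10.75 and 10.68 on the SAH-BCL9B arrays, against 10.74, 10.67 and 10.57 on the vehicle arrays. These overlapped, and the 95% interval of its change of 0.03 ± 0.09 ran from -0.17 to 0.23 (adjusted p = 0.933). The dim SERPINE2 probe set 227487_s_at changed by 0.13 ± 0.12 (adjusted p = 0.709).

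None of the 8 probe sets of MMP2, MMP7 and MMP14 passed the limma test, and 0 had an unadjusted p under 0.05. Their log2 changes ran from -0.13 to 0.15, with a median of -0.00076, and 5 of the 8 had vehicle means below the median of all probe sets. MMP7, in its single probe set 204259_at, read 5.64, 5.60 and 5.34 on the SAH-BCL9B arrays, against 5.54, 5.59 and 5.28 on the vehicle arrays. The groups overlapped almost fully, with a change of 0.05 ± 0.12 (limma adjusted p = 0.911, 95% interval -0.23 to 0.34). Its vehicle mean lay below the median of all probe sets, and its signal over background is unknown because detection calls were not used here.

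MMP14, the membrane-bound activator of MMP2, had 3 of its 4 probe sets above the median of all probe sets in vehicle. Probe set 160020_at read 7.68, 8.07 and 7.58 on the SAH-BCL9B arrays, against 7.80, 7.66 and 8.08 on the vehicle arrays. SAH-BCL9B 2 and vehicle 3 were the high arrays of their groups, and the change was -0.07 ± 0.16 (limma adjusted p = 0.911). Probe set 202828_s_at read 7.68, 7.87 and 7.67 on the SAH-BCL9B arrays, against 7.40, 7.80 and 7.56 on the vehicle arrays, a change of 0.15 ± 0.12 (adjusted p = 0.669). The other two MMP14 probe sets, 217279_x_at and 202827_s_at, changed by 0.03 ± 0.08 and -0.03 ± 0.08 (adjusted p = 0.921 and 0.911). MMP2 changed by 0.04 ± 0.10 in probe set 201069_at, by -0.11 ± 0.15 in 1566678_at and by -0.13 ± 0.11 in 1566677_at (adjusted p = 0.925, 0.831 and 0.702), with the groups overlapping in each.

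**Figure D2:**
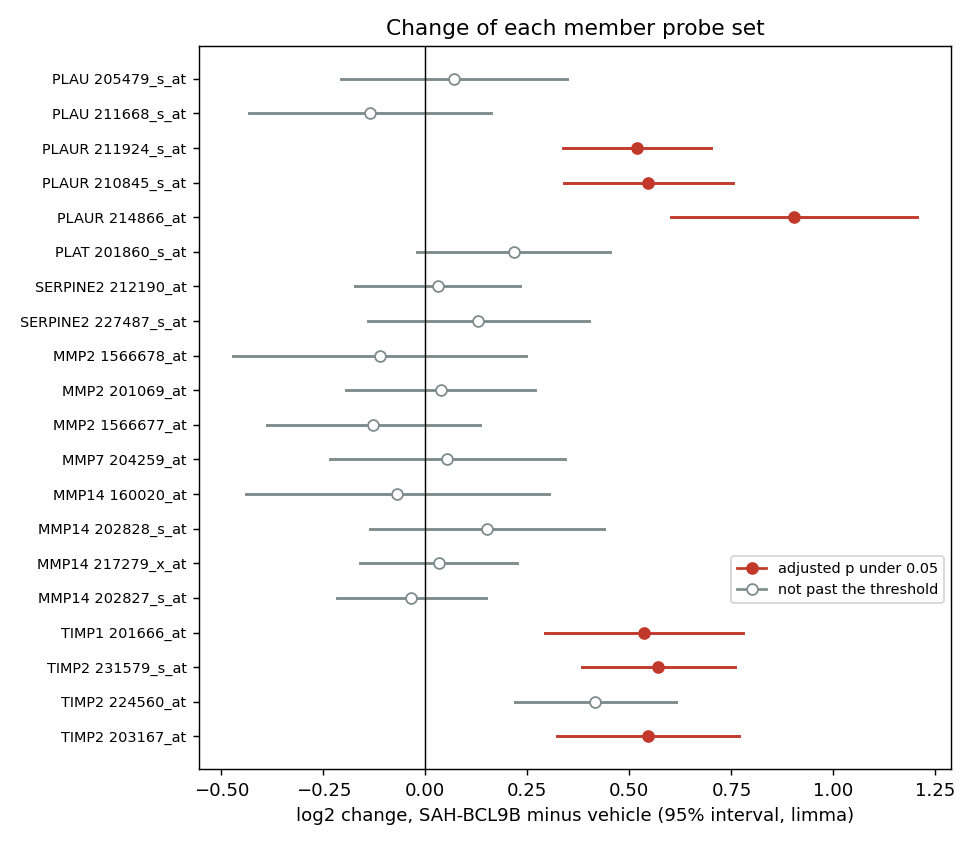
Log2 change of each member probe set, SAH-BCL9B minus vehicle, with limma's 95% interval. Filled red points passed an adjusted p of 0.05. The 3 PLAUR probe sets, TIMP1 and the 3 TIMP2 probe sets lie to the right of 0 with intervals that exclude it, and the intervals of the remaining 13 include 0.

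TIMP1 and TIMP2 rose, although 1 of their 4 probe sets missed the threshold. TIMP1, in probe set 201666_at, read 12.63, 12.93 and 12.78 on the SAH-BCL9B arrays, against 12.16, 12.28 and 12.30 on the vehicle arrays. The groups did not overlap, SAH-BCL9B 2 was the highest array, and the change was 0.54 ± 0.10 (limma adjusted p = 0.0457). It lay close to the threshold and missed it with a second quantile normalization, with the ACTB covariate described below, without vehicle 3 and SAH-BCL9B 2 together and without any 1 of the 6 arrays (adjusted p from 0.00436 to 0.202 over the alternatives). Among genes by brightest probe set, limma gave TIMP1 0.0186 after adjustment.

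TIMP2 had 3 probe sets, all with SAH-BCL9B above vehicle. Probe set 231579_s_at read 11.65, 11.54 and 11.56 on the SAH-BCL9B arrays, against 10.99, 11.05 and 11.01 on the vehicle arrays. Both groups were tight, and the change was 0.57 ± 0.08 (limma adjusted p = 0.0188), the lowest adjusted p of any member probe set. Probe set 203167_at read 9.01, 8.97 and 8.81 on the SAH-BCL9B arrays, against 8.28, 8.46 and 8.42 on the vehicle arrays, a change of 0.55 ± 0.10 (adjusted p = 0.0334). Probe set 224560_at read 11.13, 10.97 and 10.98 on the SAH-BCL9B arrays, against 10.63, 10.59 and 10.60 on the vehicle arrays. Its change of 0.42 ± 0.08 did not pass (adjusted p = 0.0513). Averaged over its 3 probe sets, TIMP2 had a change of 0.51 ± 0.07 (limma adjusted p = 0.00812 over genes).

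**Figure D3:**
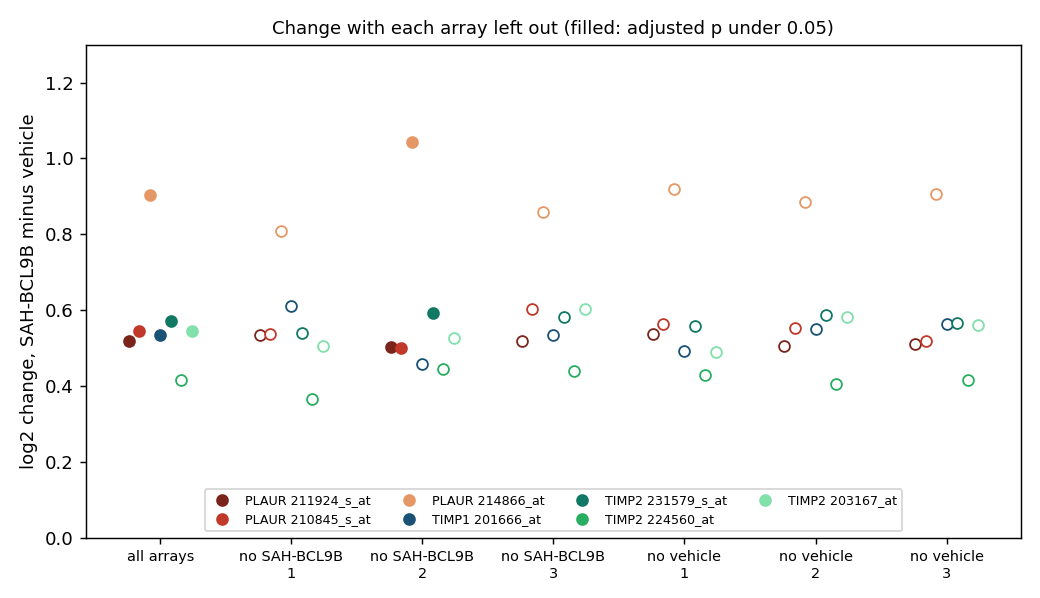
Log2 change of the 7 probe sets of PLAUR, TIMP1 and TIMP2, SAH-BCL9B minus vehicle, with all arrays and with each array left out. Filled points passed an adjusted p of 0.05. The changes run from 0.37 to 1.04, while most points become open when an array is left out.

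Among the brightest probe sets of the 9 genes, that of TIMP2 had the largest absolute change. The genes whose brightest probe sets followed TIMP2 most closely over the 6 arrays were PKNOX1, ADARB1 and ATP6V1C2, with Pearson correlations of 0.9999, 0.9985 and 0.9984. Each of them was higher with SAH-BCL9B, by 0.35, 0.79 and 1.78 on the log2 scale. The 6 arrays form 2 groups, so a gene with 2 tight and separate groups comes out high on this measure.

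In 5 lists of the wider protease system, 2 of 105 probe sets passed (1.9%), near the 2.5% of all probe sets. Of the 12 measured genes of the plasminogen system outside the members, with 23 probe sets, 1 rose, none fell and 11 did not pass (median log2 change 0.11). It was SERPINI1, which encodes neuroserpin, an inhibitor of tissue plasminogen activator. Its probe set 205352_at read 8.23, 8.13 and 8.22 on the SAH-BCL9B arrays, against 6.62, 6.91 and 6.31 on the vehicle arrays. The change in SERPINI1 was 1.58 ± 0.15 (limma adjusted p = 0.00543), or 2.99-fold, and it missed the threshold without SAH-BCL9B 3 (0.053). The annexin gene ANXA2 and its partner S100A10, which bind plasminogen at the cell surface, were very bright and changed by 0.17 and 0.06 (adjusted p = 0.39 and 0.818).

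Of the 19 measured metalloprotease genes outside the members, with 35 probe sets, none passed the limma test and 4 probe sets had an unadjusted p under 0.05, against 15.4% of all probe sets tested (median log2 change -0.01). In 8 of the 19 the brightest probe set lay above the vehicle median. Of 5 further inhibitors and activators, TIMP4 fell and TIMP3, RECK, BSG and FURIN did not pass. TIMP4, another member of the inhibitor family, read 8.60, 8.44 and 8.44 on the SAH-BCL9B arrays, against 9.18, 9.04 and 8.97 on the vehicle arrays. The groups did not overlap, in the opposite direction to TIMP1 and TIMP2, and the TIMP4 change was -0.57 ± 0.10 (limma adjusted p = 0.0306). It missed the threshold without vehicle 3 and SAH-BCL9B 2, and without any 1 array other than SAH-BCL9B 2 (adjusted p from 0.0085 to 0.15 over the alternatives).

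Among 7 membrane serine proteases and their inhibitors and 8 ADAM and ADAMTS family genes, none passed the limma test. The matriptase gene ST14 came closest, with changes of 0.34 ± 0.09 in probe set 202005_at and 0.42 ± 0.08 in 216905_s_at (adjusted p = 0.11 and 0.0504). ADAM17 and ADAM10 encode membrane-bound sheddases. ADAM17 changed by 0.29 ± 0.09 in 213532_at (limma adjusted p = 0.143) and ADAM10 by -0.02 in its brightest probe set. At an unadjusted p under 0.05, 4 of 13 probe sets of the first list and 1 of 22 of the second were counted, beside the same 15.4% of all probe sets.

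**Figure D4:**
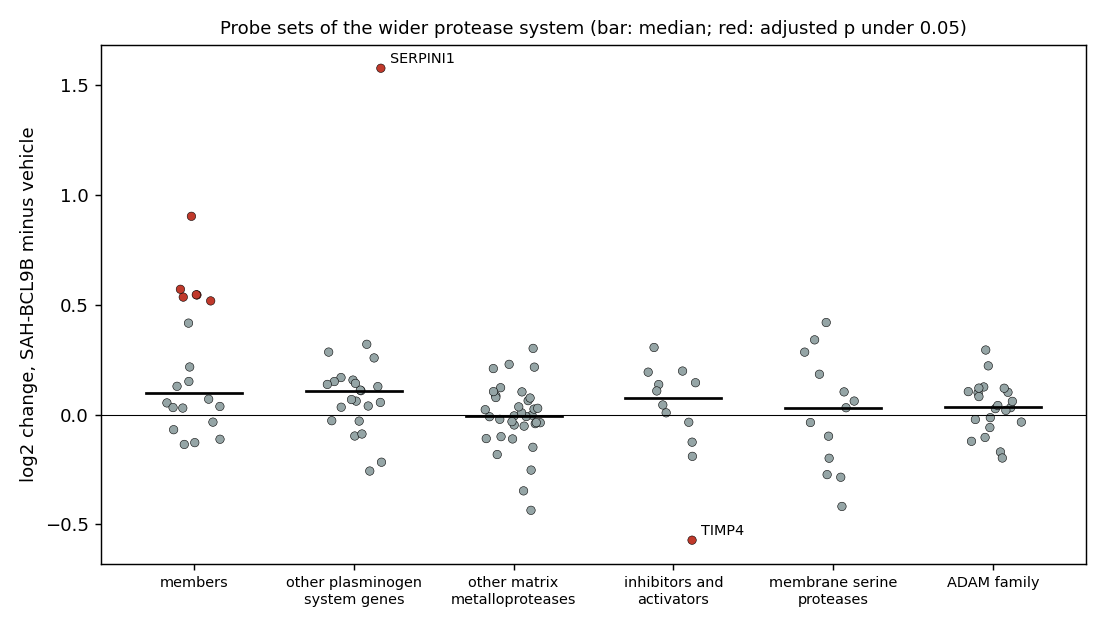
Log2 change, SAH-BCL9B minus vehicle, of every probe set of the 9 members and of 5 lists of related genes, with the median of each as a bar. Red points passed an adjusted p of 0.05. Outside the members, SERPINI1 at 1.58 and TIMP4 at -0.57 are the only red points.

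The arrays carried the markers of the labelled cell type. All 8 colorectal epithelial markers had a brightest probe set above the vehicle median, while 2 of 7 fibroblast, 1 of 4 leukocyte and 1 of 3 endothelial markers did. The share of all genes above it by brightest probe set was not counted. The dimmest epithelial marker, CDX1, lay at percentile 57.7 of all probe sets in vehicle. COL1A1 at 72.7 and PECAM1 at 59.3 lay above CDX1, and PDGFRB at 56.5 and AIF1 at 52.2 lay below it. None of the 24 fibroblast, 12 leukocyte or 8 endothelial probe sets passed the limma test, and at an unadjusted p under 0.05 the counts were 0, 0 and 0. Among the epithelial markers KRT8 rose by 0.50 ± 0.08 and VIL1 fell in 2 of 4 probe sets, by 0.86 ± 0.10 in 228912_at and by 0.58 ± 0.10 in 205506_at (adjusted p = 0.0305, 0.00989 and 0.0278). KRT8 and 205506_at missed the threshold without any 1 array other than SAH-BCL9B 2 (highest adjusted p = 0.133 and 0.131), and 228912_at missed it on leaving out SAH-BCL9B 1, SAH-BCL9B 3, vehicle 1 or vehicle 2 (highest 0.0622). Without vehicle 3 and SAH-BCL9B 2 together, KRT8 and 205506_at also missed it (limma adjusted p = 0.0833 and 0.0515), and 228912_at passed (0.0264). The 3' minus 5' difference of the ACTB control probe sets, a measure of RNA length, was 1.20, 0.74 and 1.33 on the SAH-BCL9B arrays, against 1.38, 1.29 and 1.21 on the vehicle arrays. SAH-BCL9B 2 stood lowest by ACTB. The same difference of the GAPDH control probe sets was 0.129, 0.140 and 0.085 on the SAH-BCL9B arrays. On the vehicle arrays it was 0.131, 0.169 and 0.168, and SAH-BCL9B 2 did not stand lowest by GAPDH. With the ACTB difference as a covariate, 4 member probe sets passed, the 3 of PLAUR and 231579_s_at of TIMP2. Without vehicle 3 and SAH-BCL9B 2 together 2 passed, 214866_at of PLAUR and 231579_s_at of TIMP2.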

How the data were processed

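The deposited file holds the authors' log2 values of 54675 probe sets on 6 arrays. RMA and affy are named in the submitters' processing notes; their versions were not given in the sources used here. Per the labels, cRNA was made from 100 ng of total RNA of cultures of 5000000 cells. The log2 scale was inferred from the range of values, with array medians of 6.58 to 6.62. RMA shrinks changes of dim probe sets, and a change shared by most genes would be normalized away. Levels of different probe sets depend on probe affinity and are not compared as amounts.

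The 62 array controls were left out, and 54613 probe sets entered limma (version 3.58.1, under R 4.3.3; lmFit, eBayes, SAH-BCL9B minus vehicle, no covariates), adjusted over all of them at 0.05, with no filter on low values. Of these, 41091 named 1 gene through GEO's platform annotation; symbols were checked by Entrez ID against RefSeq (41037 matched, 0 updated). Errors of changes are limma's moderated SEs. On simulated data with these 54613 probe sets, 4 of 100 changes of 0.5 and 51 of 100 changes of 1 were recovered, with 1 false call. Far fewer probe sets were changed there than the 1363 that passed in the data. The adjustment was thus stricter there, and these shares do not carry over to the data. A change of about 0.5 that did not pass may still be real. Promoter sequences are RefSeq's, build GRCh38.p14. Tables were handled with data.table (version 1.17.8) and pandas 2.3.3, under Python 3.11.15, and matplotlib 3.10.9 made the figures.

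The members, the lists, the tests and the alternatives were chosen with earlier results of these data known. All 9 members were named whatever their result, other genes where a probe set passed, at most 4 a list; ANXA2, S100A10, ST14, ADAM17, ADAM10, TIMP3, RECK, BSG and FURIN were named after their values were seen. The replicate numbers were checked as pairs: the deviations of same-numbered arrays correlated at 0.41, 0.06 and -0.31, so they were not treated as paired.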

Additional observations from a re-analysis of the deposited data

How the results depend on the processing

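Each of the 20 member probe sets was tested by itself in 14 to 16 alternatives (300 values); none reversed a call, and the 6 that passed kept their direction in all of these; 45 values of passing probe sets missed the threshold. Of the 14 that did not pass, 224560_at of TIMP2 passed in some alternatives, and 8 changed sign in at least 1. The count of member probe sets past the threshold was 0 with the replicate number as a block (7 at an unadjusted p under 0.05, limma), where TIMP4 also missed the threshold (limma adjusted p = 0.0896), 2 without vehicle 3 and SAH-BCL9B 2 together, and 0 to 4 with 1 array left out. Represented by the brightest probe set or by the mean of its probe sets, 3 genes passed. Over all probe sets, the count was 171 with the block, 2725 with a filter on low values, 2923 with a variance trend and robust fit, 2738 with array weights, 2982 with array SD as a covariate, 836 without both arrays named above, and 97 to 1478 with 1 array left out, against 1363 in all. In an alternative added after seeing the data, adjustment over genes by brightest probe set, 3 genes passed; TIMP2 alone did with the block (1 gene), and 2 to 3 genes did with 1 array left out. There TIMP1 missed without vehicle 1, vehicle 2 or SAH-BCL9B 3 (highest limma adjusted p = 0.093). The replicate numbers give no pairing, and the cause of these changes was not tested; leaving out an array also leaves fewer samples. Signal over background is unknown, which limits the dim probe sets of PLAU, PLAT, MMP2 and MMP7.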
